A study of Mus musculus with 54 samples.

Results

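Livers of wild-type (WT) mice taken at ZT16, in the dark phase when mice feed, were compared with livers of WT mice taken at ZT4, in the light phase when mice rest. ZT counts hours from lights on. The comparison uses 3 WT ZT16 libraries and 3 WT ZT4 libraries of the 54 in the study, and every gene with a mean of at least 0.5 FPKM over those 6 libraries, a level scaled by transcript length and library depth. That left 11746 members of the 18079 genes in the table, and 6333 lay below the minimum. Tmem132a lay just inside it, with a mean of 0.50025 FPKM, and Sorl1 just outside, with 0.49967 FPKM. Of the members, 175 had a ZT16 mean under the minimum and 138 a ZT4 mean under it. Such genes passed through the other harvest time alone, Npas2, Ppp1r3g, Per1, Ciart and Usp2 below among them. The study asked how far the clock of the liver runs without other clocks. It sampled BMAL1 knockout mice (KO), Liver-RE mice, whose BMAL1-stop-FL allele is reconstituted in liver, and WT mice, with 3 livers per genotype at each of ZT0, 4, 8, 12, 16 and 20. All mice were female, C57BL/6J and 8 to 12 weeks old, ate chow freely and lived under equal light and dark phases, so no group separates feeding from light or from clock time. Which stretch of Arntl, the gene for BMAL1, the alleles change and which Cre line acts in liver is information that the sources used here do not give.

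The circadian clock of mammalian cells is a loop of transcription factors. BMAL1 pairs with CLOCK or NPAS2, binds E-boxes and drives the Per and Cry genes, whose proteins return to block it. BMAL1 and CLOCK also drive the REV-ERB receptors, which repress Arntl through elements that ROR receptors activate, and the D-box factors DBP, TEF and HLF, which NFIL3 opposes. In liver these factors, together with feeding, insulin and glucocorticoids, set daily waves of lipid, sugar, bile acid and drug metabolism.

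Promoter sequences are shown for the clock genes that changed between the harvest times and hold a clock motif, since Per, Cry, Ciart and Tef are all genes that the E-box and D-box arms of the loop act on. RefSeq windows on GRCm38.p6, from 250 bases before to 50 after a gene start, were matched by symbol for 18 of the 24 measured clock list members. They were searched on both strands for the E-box CACGTG, the D-box TTATGTAA and the RORE TAGGTCA. None of these overlap in the windows printed. The windows are Tef at chr15:81802423-81802722 (plus strand) and at chr15:81811164-81811463 (plus strand), Per1 at chr11:69098699-69098998 (plus strand), Ciart at chr3:95882179-95882478 (minus strand), Cry1 at chr10:85185005-85185304 (minus strand) and Per3 at chr4:151044616-151044915 (minus strand). Capitals mark the motif, and each line runs 5′ to 3′ on the strand of the gene.
Tef, upstream start: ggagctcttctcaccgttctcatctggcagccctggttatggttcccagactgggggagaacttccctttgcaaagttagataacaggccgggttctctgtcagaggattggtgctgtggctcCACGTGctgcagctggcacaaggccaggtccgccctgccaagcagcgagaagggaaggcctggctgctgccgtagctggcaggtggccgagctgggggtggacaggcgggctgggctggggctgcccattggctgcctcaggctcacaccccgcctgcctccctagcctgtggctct
Tef, downstream start: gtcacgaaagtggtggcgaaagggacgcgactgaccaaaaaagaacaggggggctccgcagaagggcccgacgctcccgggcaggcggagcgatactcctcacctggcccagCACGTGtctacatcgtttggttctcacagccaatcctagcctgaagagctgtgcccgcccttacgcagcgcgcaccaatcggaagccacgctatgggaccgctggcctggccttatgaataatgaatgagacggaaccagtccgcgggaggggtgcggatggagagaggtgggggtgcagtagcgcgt
Per1: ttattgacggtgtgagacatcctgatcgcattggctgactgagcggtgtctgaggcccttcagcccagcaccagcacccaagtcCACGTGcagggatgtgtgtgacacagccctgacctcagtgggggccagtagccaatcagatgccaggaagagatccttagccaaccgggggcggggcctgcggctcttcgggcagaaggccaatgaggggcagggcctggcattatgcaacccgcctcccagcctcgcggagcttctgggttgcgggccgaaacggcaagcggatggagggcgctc
Ciart: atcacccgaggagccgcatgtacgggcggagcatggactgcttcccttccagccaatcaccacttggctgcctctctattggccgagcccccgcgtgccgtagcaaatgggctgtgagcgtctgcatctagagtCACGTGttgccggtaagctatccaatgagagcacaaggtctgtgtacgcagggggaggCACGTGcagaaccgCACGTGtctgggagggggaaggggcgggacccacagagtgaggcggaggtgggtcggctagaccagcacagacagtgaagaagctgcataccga
Cry1: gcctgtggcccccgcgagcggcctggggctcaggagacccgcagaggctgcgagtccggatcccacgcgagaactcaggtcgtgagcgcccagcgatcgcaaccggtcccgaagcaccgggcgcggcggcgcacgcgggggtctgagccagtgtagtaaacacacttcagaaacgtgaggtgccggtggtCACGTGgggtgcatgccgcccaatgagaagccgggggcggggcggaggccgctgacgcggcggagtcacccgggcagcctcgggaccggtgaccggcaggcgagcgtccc
Per3: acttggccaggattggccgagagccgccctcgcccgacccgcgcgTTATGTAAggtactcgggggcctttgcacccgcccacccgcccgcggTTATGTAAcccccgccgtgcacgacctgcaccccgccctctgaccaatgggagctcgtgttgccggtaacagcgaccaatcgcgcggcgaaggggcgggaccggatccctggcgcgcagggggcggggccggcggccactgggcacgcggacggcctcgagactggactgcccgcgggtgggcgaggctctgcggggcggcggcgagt

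Ciart held 3 E-boxes, at bases -116, -58 and -44 from its start. Per1 held 1 at -166, Cry1 held 1 at -60, and the Tef starts held 1 each at -127 and -138. Per3 held 2 D-boxes, at -205 and -158, and no E-box in this window. Of the other windows searched, Nfil3 and Arntl held a RORE, at -12 and 30, and Timeless a D-box at -157. The window of Nr1d1 held none of these letters. An E-box stood in 8.10% of all 27018 RefSeq genes and in 12.1% of the 9106 members with a window. Among genes called higher at ZT16 it stood in 49 of 298 (16.4%), and among genes called lower in 53 of 370 (14.3%). The D-box stood in 10 of 298 genes called higher (3.36%), in 4 of 370 called lower (1.08%) and in 0.714% of members. The RORE stood in 3.36% of genes called higher, 4.32% of genes called lower and 2.56% of members. A match is a description of the letters and not a site of binding.

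Depth, estimated from the steps between low values, was 29.4 ± 1.53 M reads at ZT16 and 31.8 ± 1.66 M reads at ZT4 (SD, n = 3 each). The most frequent step was taken as 1 read and held 1.07% to 5.75% of low values per library, so these depths are rough. Albumin took 11.5% ± 1.73 of the FPKM sum at ZT16 and 9.37% ± 0.491 at ZT4 (SD, n = 3 each). Within a harvest time libraries correlated at Pearson r of 0.982 to 0.990 across genes on the log2 scale, and between the times at 0.969 to 0.976. Of 15 listed hepatocyte markers, 14 stood in the table, and all 14 reached the minimum. None was called, and their summed level overlapped, with 56339 to 71292 FPKM at ZT16 and 49758 to 61160 FPKM at ZT4. The tissue label therefore met its markers. Kupffer cell, endothelial and stellate markers, 13, 15 and 13 measured, also held no called gene, and their sums overlapped between the times. Of the markers of other cells, 3 lymphocyte, 2 cholangiocyte, 4 adipocyte, 2 neutrophil, 2 erythroid and 1 pancreatic gene reached the minimum. Only the neutrophil gene S100a9 was called among them, with 1.90, 1.29 and 0.569 FPKM at ZT16, against 3.83, 3.93 and 2.52 FPKM at ZT4. Its call was lost without ZT16 replicate 2, ZT16 replicate 3, ZT4 replicate 1 or ZT4 replicate 2, with an adjusted p of up to 0.0765. In whole liver, fewer cells of a type and less RNA per cell cannot be told apart.

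At ZT16, 388 of 11746 members were called higher than at ZT4 (3.3%) and 527 were called lower (4.49%), or 915 in either direction (7.79%), at a Benjamini-Hochberg adjusted p under 0.05 in limma on log2(FPKM + 1). Differences are on this scale throughout, with their standard error, which understates the change of low genes. A change of 1 or more was reached by 97 of the genes called higher and 103 of those called lower. The median over all members was -0.02. The shares of 3.3% higher and 4.49% lower over all members are the measure for each list count below. None of the 915 called genes had overlapping groups, so their sign could not change with any 1 library left out. Without regard to the test, groups did not overlap for 1589 members with ZT16 on top (13.5%) and 1873 with ZT4 on top (15.9%). The call itself could be lost: 325 of the 915 passed without any 1 library. Genes called higher numbered 373, 204 and 233 without ZT16 replicate 1, 2 or 3 and 243, 276 and 180 without ZT4 replicate 1, 2 or 3. Genes called lower numbered 420, 296 and 300 without ZT16 replicate 1, 2 or 3 and 405, 285 and 235 without ZT4 replicate 1, 2 or 3.

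**Figure D1:**
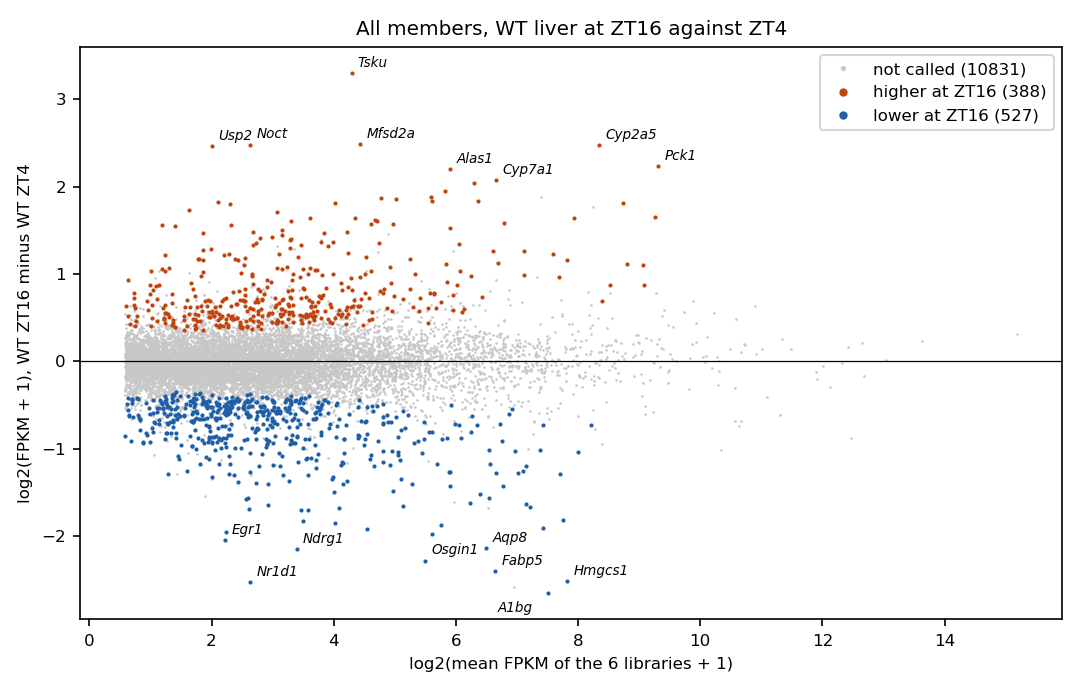
Difference between WT ZT16 and WT ZT4 in log2(FPKM + 1) against the log2 mean level of each of the 11746 members, one point per gene. The 388 genes called higher reach 3.30 (Tsku) and the 527 called lower reach -2.65 (A1bg), and both occur at low and at high levels.

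The negative limb of the clock was up at ZT16. All 6 measured repressors, Per1, Per2, Per3, Cry1, Cry2 and Ciart, were called higher, and all 6 were also called with any 1 library left out. Over the 5 clock lists 9 of 24 measured genes were called higher and 3 lower, beside 3.3% and 4.49% of all members. Bhlhe41, a 25th gene, fell below the minimum. Per1 and Ciart passed the minimum through their ZT16 libraries alone, so their separation is partly set by the filter. Per1 (chromosome 11, 69095108 to 69109965), a repressor that also answers to feeding and glucocorticoid signals, had 4.01, 3.32 and 3.89 FPKM at ZT16, against 0.692, 0.409 and 0.220 FPKM at ZT4. Its lowest ZT16 library lay above the highest ZT4 library, and the mean at ZT16 was 8.50 times that at ZT4 (log2 difference 1.73 ± 0.13, adjusted p = 0.000448). Ciart, a further repressor of BMAL1 and CLOCK with 3 E-boxes in the window above, had 1.85, 2.11 and 3.32 FPKM at ZT16, against 0.163, 0.193 and 0.0898 FPKM at ZT4, a mean 16.3 times as high (log2 difference 1.55 ± 0.15, adjusted p = 0.000865). Per3 had 5.77, 4.94 and 6.31 FPKM at ZT16, against 1.42, 0.703 and 0.620 FPKM at ZT4 (log2 difference 1.82 ± 0.16, adjusted p = 0.000550). Per2 had 6.17, 5.47 and 8.29 FPKM at ZT16, against 2.00, 1.13 and 0.606 FPKM at ZT4, with the widest spread at ZT4 in this set (log2 difference 1.797 ± 0.22, adjusted p = 0.00194). Cry1, the repressor that peaks late in the night in liver, had 10.7, 12.8 and 12.0 FPKM at ZT16, against 1.84, 3.41 and 3.80 FPKM at ZT4 (log2 difference 1.71 ± 0.19, adjusted p = 0.00129). Cry2 changed least, with 7.58, 7.87 and 8.87 FPKM at ZT16, against 4.00, 4.30 and 4.73 FPKM at ZT4 (log2 difference 0.77 ± 0.10, adjusted p = 0.00373). With the spread taken from all 18 WT libraries, which include an out-of-phase ZT8 library described further on, 5 of the 6 were called, and Ciart missed at adjusted p = 0.0555.

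Of the activators 1 of 3 was called. Npas2, the partner of BMAL1 that can stand in for CLOCK, had 0.0299, 0.142 and 0.0378 FPKM at ZT16, against 0.727, 0.899 and 1.18 FPKM at ZT4, without overlap (log2 difference -0.85 ± 0.12, adjusted p = 0.00421). It passed the minimum of 0.5 FPKM through its ZT4 libraries alone, so its separation is partly set by the filter. Arntl itself had 4.75, 4.37 and 5.55 FPKM at ZT16, against 4.64, 7.54 and 7.52 FPKM at ZT4, and the groups overlapped (log2 difference -0.34 ± 0.17, adjusted p = 0.254). Clock had 7.24, 7.35 and 7.03 FPKM at ZT16, against 8.78, 11.003 and 9.51 FPKM at ZT4, without overlap, and did not pass (log2 difference -0.39 ± 0.11, adjusted p = 0.0643). Over the WT day the mean of Arntl was lowest at ZT12, at 0.436 FPKM.

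Among the nuclear receptors of the loop, Nr1d1, the repressor of Arntl, was called lower at ZT16. Nr1d1 (REV-ERB alpha; chromosome 11, 98767932 to 98775377) fell to 1.19, 0.475 and 0.854 FPKM at ZT16, against 11.3, 7.16 and 10.3 FPKM at ZT4, a mean 0.0874 times that at ZT4 (log2 difference -2.52 ± 0.18, adjusted p = 0.000372). Nr1d2 (REV-ERB beta) had 13.9, 16.4 and 12.5 FPKM at ZT16, against 13.6, 14.1 and 13.5 FPKM at ZT4, and Rora had 11.9, 11.3 and 8.78 FPKM at ZT16, against 8.95, 10.2 and 12.6 FPKM at ZT4. Both overlapped between the times, with adjusted p = 0.864 for Nr1d2 and 0.968 for Rora.

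Of the D-box factors, Tef had 27.3, 32.0 and 30.4 FPKM at ZT16, against 9.58, 9.32 and 7.84 FPKM at ZT4 (log2 difference 1.64 ± 0.12, adjusted p = 0.000372), and Hlf had 7.82, 6.14 and 6.28 FPKM at ZT16, against 4.70, 3.78 and 3.84 FPKM at ZT4 (log2 difference 0.60 ± 0.12, adjusted p = 0.0198). The Hlf call was lost without ZT4 replicate 2 or ZT4 replicate 3, with an adjusted p of up to 0.0830. Dbp had 5.93, 6.21 and 6.79 FPKM at ZT16, against 5.41, 3.50 and 1.86 FPKM at ZT4, and Nfil3 had 11.3, 10.4 and 12.5 FPKM at ZT16, against 5.69, 8.68 and 11.03 FPKM at ZT4. Neither passed, with adjusted p = 0.0972 for Dbp and 0.219 for Nfil3, and the ZT4 libraries of both spread widely. Among the 7 kinase, ubiquitin ligase and other modifier genes only Fbxl21, an F-box protein that acts on the CRY proteins, was called, with 2.10, 1.53 and 1.57 FPKM at ZT16, against 2.497, 2.73 and 3.14 FPKM at ZT4. That call was lost without ZT16 replicate 2, ZT16 replicate 3, ZT4 replicate 1, ZT4 replicate 2 or ZT4 replicate 3, with an adjusted p of up to 0.152. Csnk1d, Csnk1e, Btrc, Bhlhe40 and Timeless were among those that did not pass.

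**Figure D2:**
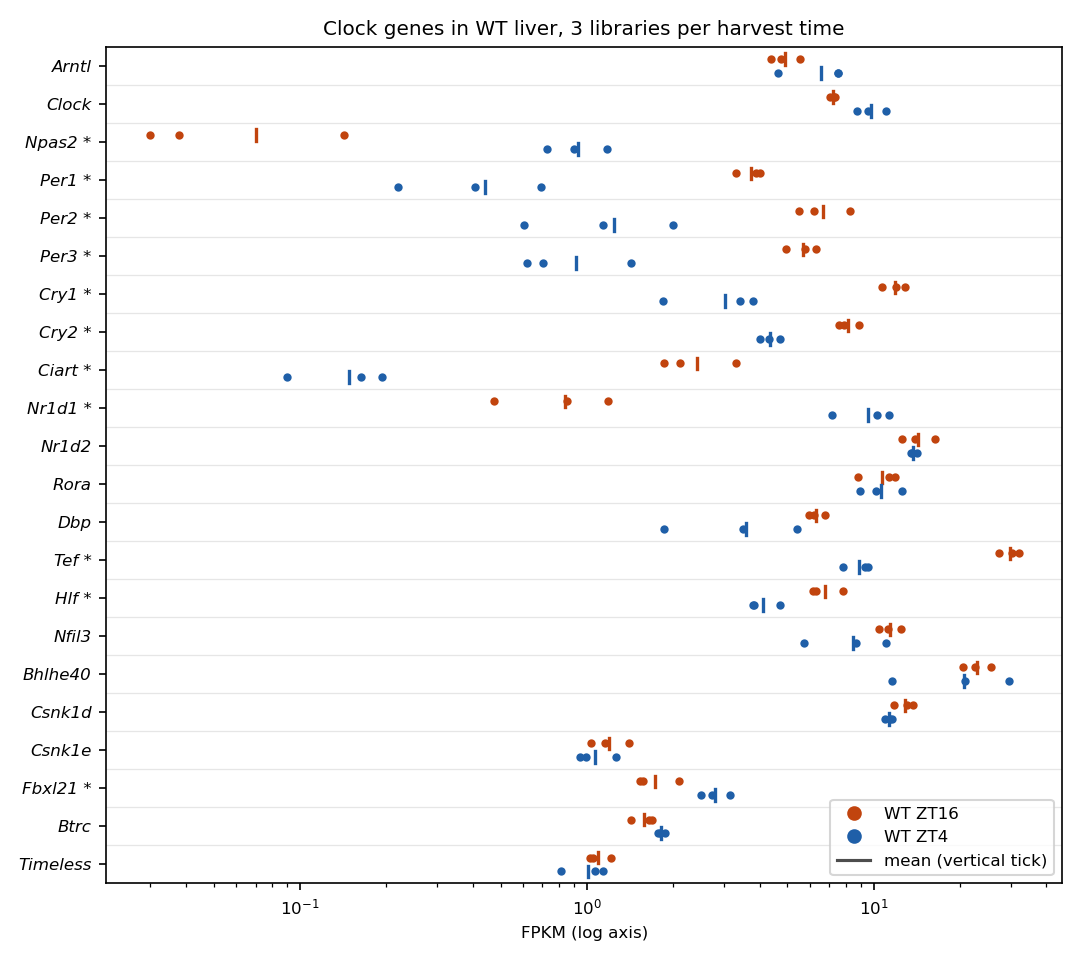
FPKM of 22 measured clock genes on a log axis, with WT ZT16 libraries above WT ZT4 libraries for each gene, ticks at group means and an asterisk on called genes. Per1, Per3 and Ciart sit to the right at ZT16, Nr1d1 and Npas2 to the left, and Nr1d2 and Rora overlap.

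Genes listed as outputs of the liver clock were mostly called higher. The list was chosen with earlier results of these data known, and whether each gene is a direct target was not tested. Of 14 measured outputs, 11 were called higher and 1 lower, with a median of 1.41. Usp2 (chromosome 9, 44067021 to 44095627), a ubiquitin protease, had the smallest p of all members, with 5.50, 5.89 and 6.04 FPKM at ZT16, against 0.176, 0.208 and 0.322 FPKM at ZT4, a mean 24.7 times as high (log2 difference 2.46 ± 0.10, adjusted p = 9.02e-06). Usp2 passed the minimum of 0.5 FPKM through its ZT16 libraries alone, so its separation is partly set by the filter. Tsku (chromosome 7, 98350668 to 98361390), a secreted leucine-rich protein of liver, had the largest rise of all called genes, with 20.5, 36.4 and 46.7 FPKM at ZT16, against 4.67, 1.78 and 1.55 FPKM at ZT4 (log2 difference 3.30 ± 0.34, adjusted p = 0.00106). Wee1, the kinase that holds cells before mitosis, had 4.05, 4.68 and 4.30 FPKM at ZT16, against 0.851, 1.05 and 0.887 FPKM at ZT4 (log2 difference 1.47 ± 0.10, adjusted p = 0.000202). Nampt (chromosome 12, 32820335 to 32853369), the rate-limiting enzyme of NAD salvage, had 43.9, 52.2 and 42.5 FPKM at ZT16, against 13.3, 15.5 and 15.8 FPKM at ZT4 (log2 difference 1.57 ± 0.13, adjusted p = 0.000481). Alas1 (chromosome 9, 106233455 to 106247954), the first enzyme of heme synthesis, had 64.4, 125 and 99.6 FPKM at ZT16, against 23.1, 32.3 and 9.55 FPKM at ZT4, with ZT4 replicate 3 far below the other ZT4 libraries (log2 difference 2.20 ± 0.39, adjusted p = 0.0114). Por, which passes electrons to cytochromes P450, had 122, 178 and 197 FPKM at ZT16, against 58.1, 58.7 and 45.0 FPKM at ZT4 (log2 difference 1.59 ± 0.20, adjusted p = 0.00244). Gys2, the liver glycogen synthase, had 90.2, 107 and 85.4 FPKM at ZT16, against 35.6, 34.8 and 38.9 FPKM at ZT4, and Marveld1, a membrane protein, had 11.1, 10.03 and 11.9 FPKM at ZT16, against 3.49, 4.57 and 4.32 FPKM at ZT4. The single output called lower was Clpx, a mitochondrial chaperone named after its values were seen, at -0.88 (adjusted p = 0.0104). With 1 library left out, 10 or 11 outputs were called higher, and Clpx lost its call without ZT4 replicate 3.

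Beyond the clock lists, the largest rises were in genes of several kinds. Noct (chromosome 3, 51224447 to 51251654), nocturnin, a phosphatase of NADPH long known as a night-phase gene, had 8.16, 9.27 and 11.1 FPKM at ZT16, against 1.14, 1.01 and 0.523 FPKM at ZT4, a mean 10.7 times as high (log2 difference 2.48 ± 0.15, adjusted p = 0.000180). Mfsd2a, a lysophospholipid transporter, had 23.9, 45.4 and 37.4 FPKM at ZT16, against 9.11, 3.64 and 4.39 FPKM at ZT4 (log2 difference 2.49 ± 0.30, adjusted p = 0.00203). Upp2, which splits uridine, had 123, 108 and 140.3 FPKM at ZT16, against 18.8, 49.8 and 26.3 FPKM at ZT4 (log2 difference 2.04 ± 0.30, adjusted p = 0.00470). Cyp2a5, a cytochrome P450, had 382, 485 and 763 FPKM at ZT16, against 61.0, 182 and 72.2 FPKM at ZT4 (log2 difference 2.47 ± 0.40, adjusted p = 0.00742). Its near-identical neighbour Cyp2a4, named after its values were seen, was also called higher, at 1.65, and how reads were divided between the pair is not given, so neither value is certain alone. Fmo5, a flavin monooxygenase, had 162, 112 and 109 FPKM at ZT16, against 40.4, 28.1 and 36.1 FPKM at ZT4 (log2 difference 1.84 ± 0.19, adjusted p = 0.00119). St3gal5, which makes the ganglioside GM3, had 44.4, 96.6 and 85.3 FPKM at ZT16, against 25.7, 14.7 and 19.1 FPKM at ZT4. Igfbp1, a secreted binder of insulin-like growth factors that insulin lowers, had 47.4, 116 and 98.9 FPKM at ZT16, against 25.9, 9.57 and 33.7 FPKM at ZT4 (log2 difference 1.95 ± 0.45, adjusted p = 0.0323). The Igfbp1 call was lost without ZT16 replicate 2, ZT16 replicate 3 or ZT4 replicate 1, with an adjusted p of up to 0.103.

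The largest falls were a mixed set. Fabp5, a fatty acid binding protein, had 20.0, 50.7 and 26.3 FPKM at ZT16, against 160.2, 131 and 204 FPKM at ZT4 (log2 difference -2.40 ± 0.31, adjusted p = 0.00253). Osgin1, an oxidative stress gene, had 14.4, 13.1 and 14.8 FPKM at ZT16, against 69.3, 55.2 and 99.1 FPKM at ZT4 (log2 difference -2.28 ± 0.20, adjusted p = 0.000530). Ndrg1, a growth arrest and stress gene, had 3.19, 2.89 and 2.37 FPKM at ZT16, against 11.7, 16.6 and 20.3 FPKM at ZT4 (log2 difference -2.15 ± 0.18, adjusted p = 0.000505). Aqp8, a water channel of the bile canaliculus, had 25.2, 34.5 and 38.1 FPKM at ZT16, against 138, 124 and 177 FPKM at ZT4 (log2 difference -2.14 ± 0.19, adjusted p = 0.000593). Crot, the peroxisomal carnitine octanoyltransferase, had 105, 106 and 72.9 FPKM at ZT16, against 272, 358 and 372 FPKM at ZT4, and Tymp, thymidine phosphorylase, had 8.96, 4.87 and 13.7 FPKM at ZT16, against 32.1, 30.3 and 44.0 FPKM at ZT4. Spon2, a secreted matrix protein, had 1.01, 1.03 and 0.699 FPKM at ZT16, against 5.83, 5.08 and 8.66 FPKM at ZT4. A1bg, a plasma glycoprotein, had the lowest value of all called genes, at -2.65, on widely spread libraries with 101, 36.1 and 21.5 FPKM at ZT16, against 145, 477 and 300.1 FPKM at ZT4. Its call was lost without ZT16 replicate 2, ZT16 replicate 3, ZT4 replicate 2 or ZT4 replicate 3, with an adjusted p of up to 0.0780. Short and antisense RNAs were also among the 15 largest falls: Snora78 and Snora70, small nucleolar RNAs that guide RNA modification, at -1.87 and -1.70, and Hectd2os, antisense to Hectd2, at -1.84. The Snora78 call was lost without ZT4 replicate 1 or ZT4 replicate 3, with an adjusted p of up to 0.0819, and the Hectd2os call without ZT16 replicate 1, ZT16 replicate 3 or ZT4 replicate 3, with an adjusted p of up to 0.0716. Whether the counting used strand is not given, so reads of Hectd2os and Hectd2 cannot be told apart.

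Cholesterol genes had, by number, more calls in 1 direction than any other pathway list. By share, at 61.5%, they lay below clock repressors (100%) and clock outputs (78.6%). Of 26 measured genes of synthesis and uptake, 16 were called lower and 0 higher, with a median of -0.87. Hmgcs1 (chromosome 13, 119690351 to 119708260), which makes the HMG-CoA that the pathway starts from, had 63.9, 83.0 and 53.7 FPKM at ZT16, against 370.0, 456 and 324 FPKM at ZT4, a mean 0.174 times that at ZT4 (log2 difference -2.51 ± 0.20, adjusted p = 0.000448). Later steps fell as well. Lss, which closes the sterol rings, had 10.6, 11.9 and 9.92 FPKM at ZT16, against 24.4, 25.9 and 19.8 FPKM at ZT4 (log2 difference -1.04 ± 0.13, adjusted p = 0.00237), Hsd17b7 had 8.15, 11.9 and 9.01 FPKM at ZT16, against 23.8, 23.1 and 22.0 FPKM at ZT4, and Sc5d, near the end of the pathway, had 149, 167 and 186 FPKM at ZT16, against 327, 368 and 338 FPKM at ZT4. Srebf2, the factor that drives the pathway, was at -0.44 (adjusted p = 0.103). Cholesterol genes called lower numbered 14, 16 and 11 without ZT16 replicate 1, 2 or 3, and 13, 14 and 15 without ZT4 replicate 1, 2 or 3. With the spread taken from all 18 WT libraries, over the day, 2 were called lower.

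Fatty acid genes showed no common direction. Of 23 genes of fatty acid and triglyceride synthesis 3 were called lower, with a median of 0.002. Acss2, which makes acetyl-CoA from acetate, had 45.6, 78.9 and 85.1 FPKM at ZT16, against 220.4, 207 and 208 FPKM at ZT4 (log2 difference -1.64 ± 0.22, adjusted p = 0.00373), and Elovl5, an elongase of polyunsaturated chains, had 119, 137 and 104 FPKM at ZT16, against 337, 231 and 320.1 FPKM at ZT4 (log2 difference -1.28 ± 0.19, adjusted p = 0.00485). Gpam, the first step of triglyceride synthesis, was at -0.71, and its call was lost without ZT16 replicate 1, ZT16 replicate 2, ZT16 replicate 3, ZT4 replicate 1 or ZT4 replicate 3, with an adjusted p of up to 0.106. Thrsp, a lipogenic gene picked after its values were seen, was listed at 162, 533 and 758 FPKM at ZT16, against 161, 97.9 and 104 FPKM at ZT4, and with ZT16 replicate 1 level with ZT4 it did not pass (log2 difference 1.76 ± 0.49, adjusted p = 0.0598). Of 27 genes of fatty acid oxidation and PPAR alpha, 2 were called lower: Plin2, a lipid droplet coat, with 59.3, 77.5 and 68.7 FPKM at ZT16, against 256, 155 and 264 FPKM at ZT4 (log2 difference -1.67 ± 0.22, adjusted p = 0.00291), and Acot2, a mitochondrial thioesterase, at -0.43. Acot2 lost its call without ZT16 replicate 1, ZT16 replicate 3, ZT4 replicate 1, ZT4 replicate 2 or ZT4 replicate 3, with an adjusted p of up to 0.109. Cpt1a, the gate of mitochondrial oxidation, and Ppara, both read after the fact, were at 0.25 and 0.01. Among 27 genes of lipid uptake and lipoproteins, Plin5, a droplet protein tied to mitochondria, was higher (log2 difference 0.95 ± 0.15, adjusted p = 0.00639), and Cideb, which fills lipoproteins, was lower (log2 difference -0.73 ± 0.12, adjusted p = 0.00837). Apoa5 was higher at 0.87 and lost its call without ZT16 replicate 2, ZT16 replicate 3, ZT4 replicate 2 or ZT4 replicate 3, with an adjusted p of up to 0.0849.

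In the bile acid list, 2 of 25 genes were called higher and 4 lower. Cyp7a1 (chromosome 4, 6265612 to 6275632), the rate-limiting enzyme of bile acid synthesis, had 135, 147 and 196 FPKM at ZT16, against 25.3, 72.3 and 26.6 FPKM at ZT4, with ZT4 replicate 2 well above the other ZT4 libraries (log2 difference 2.08 ± 0.36, adjusted p = 0.00999). Nr0b2 (SHP), a receptor that represses Cyp7a1, moved the other way, with 4.57, 6.15 and 2.42 FPKM at ZT16, against 14.3, 16.1 and 16.8 FPKM at ZT4 (log2 difference -1.70 ± 0.23, adjusted p = 0.00364). Hsd3b7, the next enzyme after Cyp7a1, was also lower, with 64.4, 71.6 and 76.6 FPKM at ZT16, against 222, 313 and 277 FPKM at ZT4 (log2 difference -1.91 ± 0.16, adjusted p = 0.000543). Abcb11, the bile salt export pump, had 94.98, 109 and 122 FPKM at ZT16, against 177, 246 and 238 FPKM at ZT4 (log2 difference -1.01 ± 0.17, adjusted p = 0.0104), and its call was lost without ZT4 replicate 3, with an adjusted p of up to 0.0519. Counts called higher in this list were 2, 1 and 1 without ZT16 replicate 1, 2 or 3, and 1, 2 and 1 without ZT4 replicate 1, 2 or 3. Counts called lower were 3 without ZT4 replicate 3 and 4 without any other single library.

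Sugar genes changed at a few steps. Of 24 genes of glycolysis and gluconeogenesis, 4 were called higher and 0 lower, with a median of 0.07. Pck1 (chromosome 2, 173153073 to 173159274), the entry enzyme of gluconeogenesis, had 773, 1418 and 970.4 FPKM at ZT16, against 186, 204 and 265 FPKM at ZT4 (log2 difference 2.23 ± 0.24, adjusted p = 0.00133). Slc37a4, the glucose-6-phosphate transporter, was higher at 1.04, Gpi1 at 0.72 and Pfkl, the liver phosphofructokinase, at 0.54. Slc37a4 lost its call without ZT16 replicate 2, ZT16 replicate 3, ZT4 replicate 2 or ZT4 replicate 3, with an adjusted p of up to 0.0802, Gpi1 without ZT16 replicate 2, ZT16 replicate 3, ZT4 replicate 2 or ZT4 replicate 3, with an adjusted p of up to 0.113, and Pfkl without ZT16 replicate 2, ZT16 replicate 3, ZT4 replicate 1 or ZT4 replicate 3, with an adjusted p of up to 0.0824. Genes called higher in this list numbered 7, 1 and 1 without ZT16 replicate 1, 2 or 3, and 3, 2 and 1 without ZT4 replicate 1, 2 or 3.

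Glycogen genes were split, with 2 of 17 called higher and 3 lower. Beside Gys2, Ppp1r3g, a glycogen-targeting subunit of protein phosphatase 1, had 0.960, 0.740 and 0.854 FPKM at ZT16, against 0.184, 0.160 and 0.234 FPKM at ZT4 (log2 difference 0.63 ± 0.10, adjusted p = 0.00733). It passed the minimum of 0.5 FPKM through its ZT16 libraries alone, so its separation is partly set by the filter. Another glycogen-targeting subunit, Ppp1r3c, was lower, with 17.1, 19.2 and 15.02 FPKM at ZT16, against 24.7, 34.7 and 41.9 FPKM at ZT4, and Phka2, a subunit of phosphorylase kinase, was lower at -0.45. Ppp1r3c lost its call without ZT16 replicate 3, ZT4 replicate 2 or ZT4 replicate 3, with an adjusted p of up to 0.0763, and Phka2 without ZT16 replicate 3, ZT4 replicate 1, ZT4 replicate 2 or ZT4 replicate 3, with an adjusted p of up to 0.0739. Glycogen genes called lower numbered 2, 2 and 0 without ZT16 replicate 1, 2 or 3, and 1, 0 and 0 without ZT4 replicate 1, 2 or 3, and genes called higher 4 without ZT4 replicate 1 and 2 without any other.

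Insulin and FOXO genes gave 4 of 22 higher and 3 lower. Klf15, a factor of amino acid breakdown and gluconeogenesis, had 21.9, 27.4 and 27.0 FPKM at ZT16, against 9.82, 12.0 and 8.93 FPKM at ZT4 (log2 difference 1.24 ± 0.14, adjusted p = 0.00158). Trib3, an inhibitor of AKT, had 0.749, 1.03 and 0.934 FPKM at ZT16, against 2.00, 1.87 and 1.91 FPKM at ZT4 (log2 difference -0.62 ± 0.10, adjusted p = 0.00699). Grb14, which binds and blocks the insulin receptor, was lower at -0.72, and Pik3r1, the regulatory subunit of PI3-kinase, higher at 0.59. Grb14 lost its call without ZT16 replicate 2, ZT4 replicate 1, ZT4 replicate 2 or ZT4 replicate 3, with an adjusted p of up to 0.0739, and Pik3r1 without ZT16 replicate 2, ZT16 replicate 3, ZT4 replicate 2 or ZT4 replicate 3, with an adjusted p of up to 0.123. Insulin and FOXO genes called higher numbered 5, 1 and 2 without ZT16 replicate 1, 2 or 3, and 3, 2 and 2 without ZT4 replicate 1, 2 or 3, and those called lower 2, 1 and 2 without ZT16 replicate 1, 2 or 3, and 1, 1 and 1 without ZT4 replicate 1, 2 or 3.

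Of 28 genes of xenobiotic metabolism 6 were called higher and 0 lower, 22 had a positive value, and the median was 0.30. Beside Cyp2a5, Fmo5 and Por, Ces1d, a carboxylesterase, had 692, 759 and 736 FPKM at ZT16, against 273, 344 and 410.4 FPKM at ZT4 (log2 difference 1.11 ± 0.19, adjusted p = 0.00909). Xenobiotic genes called higher numbered 7, 6 and 5 without ZT16 replicate 1, 2 or 3, and 5, 8 and 4 without ZT4 replicate 1, 2 or 3. Of 12 heme genes, 2 were called higher, Alas1 and Hmox1, and 1 lower, Ppox. Hmox1, which breaks heme down, was at 0.52 and lost its call without ZT16 replicate 1, ZT16 replicate 2, ZT16 replicate 3, ZT4 replicate 1 or ZT4 replicate 3, with an adjusted p of up to 0.142. Ppox, a late step of synthesis, was at -0.51 and lost its call without ZT16 replicate 2, ZT4 replicate 2 or ZT4 replicate 3, with an adjusted p of up to 0.0738. Heme genes called higher numbered 1, 1 and 1 without ZT16 replicate 1, 2 or 3, and 1, 2 and 1 without ZT4 replicate 1, 2 or 3. Of 23 NAD genes, 5 were called higher and 1 lower. Beside Nampt, Nmrk1, which salvages nicotinamide riboside, had 13.2, 17.4 and 20.3 FPKM at ZT16, against 7.54, 8.62 and 6.73 FPKM at ZT4 (log2 difference 1.04 ± 0.16, adjusted p = 0.00594), and Nadk, which makes NADP, was higher at 0.59. Tdo2, which opens tryptophan breakdown, was higher at 0.87. Nadk lost its call without ZT16 replicate 2, ZT16 replicate 3, ZT4 replicate 1 or ZT4 replicate 3, with an adjusted p of up to 0.106. Tdo2 lost its call without ZT16 replicate 1, ZT16 replicate 2, ZT16 replicate 3, ZT4 replicate 1, ZT4 replicate 2 or ZT4 replicate 3, with an adjusted p of up to 0.105. NAD genes called higher numbered 3, 2 and 2 without ZT16 replicate 1, 2 or 3, and 2, 5 and 2 without ZT4 replicate 1, 2 or 3.

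Among 34 urea cycle and amino acid genes, 6 were called higher and 2 lower. Tat, tyrosine aminotransferase, had 511, 816 and 653 FPKM at ZT16, against 130.4, 254 and 186 FPKM at ZT4 (log2 difference 1.82 ± 0.26, adjusted p = 0.00467). Gpt2, a mitochondrial alanine aminotransferase, had 126, 140.4 and 142 FPKM at ZT16, against 65.1, 54.7 and 49.2 FPKM at ZT4 (log2 difference 1.26 ± 0.15, adjusted p = 0.00175). Asl, argininosuccinate lyase of the urea cycle, was higher at 1.16, Ahcy, which clears S-adenosylhomocysteine, at 0.98 and Sds, serine dehydratase, at 1.12. Asl lost its call without ZT4 replicate 3, with an adjusted p of up to 0.0524, and Sds without ZT4 replicate 1 or ZT4 replicate 3, with an adjusted p of up to 0.0841. Amino acid genes called higher numbered 5, 5 and 5 without ZT16 replicate 1, 2 or 3, and 4, 6 and 3 without ZT4 replicate 1, 2 or 3, and those called lower 3, 0 and 1 without ZT16 replicate 1, 2 or 3, and 2, 2 and 1 without ZT4 replicate 1, 2 or 3.

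Of 18 measured glucocorticoid targets 7 were called higher and 0 lower, 17 had a positive value, and the median was 0.87. Tat and Per1 are among the 7, so this list is not separate from those above. Mt2, a metallothionein, had 76.4, 72.9 and 74.8 FPKM at ZT16, against 27.9, 19.4 and 13.8 FPKM at ZT4 (log2 difference 1.88 ± 0.21, adjusted p = 0.00162). Tsc22d3 (GILZ), a mediator of anti-inflammatory steroid action, had 31.6, 63.9 and 55.8 FPKM at ZT16, against 15.2, 12.9 and 10.3 FPKM at ZT4 (log2 difference 1.86 ± 0.25, adjusted p = 0.00332). Dusp1, a phosphatase of stress kinases, had 8.74, 10.9 and 11.9 FPKM at ZT16, against 3.46, 2.62 and 3.83 FPKM at ZT4 (log2 difference 1.42 ± 0.15, adjusted p = 0.000965). Glucocorticoid targets called higher numbered 12, 6 and 8 without ZT16 replicate 1, 2 or 3, and 8, 7 and 7 without ZT4 replicate 1, 2 or 3, and 4 with the spread of all 18 WT libraries.

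Of 21 heat shock genes 6 were called higher and 0 lower, with a median of 0.42. Hsph1 (HSP105), a nucleotide exchange factor for HSP70, had 18.1, 23.4 and 19.8 FPKM at ZT16, against 8.18, 6.44 and 8.09 FPKM at ZT4 (log2 difference 1.32 ± 0.13, adjusted p = 0.000960). Hsp90aa1 had 23.2, 34.1 and 25.9 FPKM at ZT16, against 11.8, 13.9 and 15.2 FPKM at ZT4 (log2 difference 0.96 ± 0.16, adjusted p = 0.00878), and Hspa4l had 13.8, 15.4 and 14.3 FPKM at ZT16, against 7.77, 9.14 and 9.06 FPKM at ZT4. Stip1, which links HSP70 to HSP90, was at 0.61 and lost its call without ZT16 replicate 2, ZT16 replicate 3, ZT4 replicate 1, ZT4 replicate 2 or ZT4 replicate 3, with an adjusted p of up to 0.0700. Heat shock genes called higher numbered 10, 3 and 3 without ZT16 replicate 1, 2 or 3, and 4, 3 and 3 without ZT4 replicate 1, 2 or 3, and 3 with the spread of all 18 WT libraries. Cirbp and Rbm3, the cold-inducible members, were at -0.37 and -0.09, named after the fact, and did not pass. In the unfolded protein list 1 of 26 was called higher (3.85%, near the 3.3% of all members), Herpud1, a part of the degradation complex of the endoplasmic reticulum, at 1.26. Its call was lost without ZT16 replicate 2, ZT16 replicate 3, ZT4 replicate 2 or ZT4 replicate 3, with an adjusted p of up to 0.0971.

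Immediate early and SRF genes gave 1 of 20 called higher and 4 lower. Egr1, a rapid-response factor, had 1.07, 0.414 and 0.518 FPKM at ZT16, against 3.79, 12.2 and 3.95 FPKM at ZT4, with ZT4 replicate 2 far above the rest (log2 difference -2.05 ± 0.35, adjusted p = 0.00979). Junb had 4.42, 4.06 and 3.83 FPKM at ZT16, against 8.70, 9.23 and 8.54 FPKM at ZT4 (log2 difference -0.94 ± 0.10, adjusted p = 0.000965). The matricellular genes Ctgf and Cyr61, of the same family, moved apart, with 2.02, 2.57 and 1.95 FPKM at ZT16, against 0.735, 0.552 and 0.375 FPKM at ZT4 for Ctgf (log2 difference 1.03 ± 0.12, adjusted p = 0.00191) and 1.20, 1.34 and 1.38 FPKM at ZT16, against 2.23, 2.81 and 2.70 FPKM at ZT4 for Cyr61 (log2 difference -0.63 ± 0.10, adjusted p = 0.00758). Genes called lower in this list numbered 3 to 5 with 1 library left out, and Ctgf was called each time. With the spread of all 18 WT libraries 1 was called lower, and Ctgf kept its call.

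Of 29 measured interferon-stimulated genes 8 were called lower and 0 higher, 0 had a positive value, and the median was -0.42. Dhx58 (LGP2), a regulator of RNA sensing, had 2.41, 2.33 and 2.66 FPKM at ZT16, against 4.57, 5.84 and 5.22 FPKM at ZT4 (log2 difference -0.84 ± 0.11, adjusted p = 0.00253). Zbp1, a nucleic acid sensor, had 2.48, 2.26 and 2.64 FPKM at ZT16, against 4.18, 6.14 and 4.22 FPKM at ZT4 (log2 difference -0.74 ± 0.14, adjusted p = 0.0131), Usp18, which removes ISG15, had 4.48, 4.32 and 3.77 FPKM at ZT16, against 6.37, 13.1 and 7.91 FPKM at ZT4, and Trim25 was at -0.47. Zbp1 lost its call without ZT16 replicate 2, with an adjusted p of up to 0.0525, Usp18 without ZT16 replicate 1, ZT16 replicate 2, ZT16 replicate 3 or ZT4 replicate 3, with an adjusted p of up to 0.0978, and Trim25 without ZT16 replicate 2, ZT16 replicate 3, ZT4 replicate 1, ZT4 replicate 2 or ZT4 replicate 3, with an adjusted p of up to 0.118. The count rested on single libraries: genes called lower numbered 7, 1 and 2 without ZT16 replicate 1, 2 or 3, and 5, 3 and 2 without ZT4 replicate 1, 2 or 3, 3 with the replicate number as a block and 4 with the spread of all 18 WT libraries. Beside these genes, the summed neutrophil markers S100a8 and S100a9 lay between 1.08 and 4.41 FPKM at ZT16 and between 4.97 and 7.05 FPKM at ZT4, while Kupffer cell markers summed to 374.7 to 479 FPKM at ZT16 and 353 to 488 FPKM at ZT4. Ly6g, Mpo and Elane, defining neutrophil genes, fell below the minimum. The part of these cells in the result was not tested.

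Acute phase genes gave 4 of 26 higher and 1 lower. Il6ra, the receptor of interleukin 6, had 14.2, 18.1 and 14.2 FPKM at ZT16, against 6.68, 7.14 and 6.67 FPKM at ZT4 (log2 difference 1.07 ± 0.12, adjusted p = 0.00145), and Saa4, the constitutive serum amyloid A, had 77.0, 75.6 and 78.0 FPKM at ZT16, against 46.1, 44.8 and 43.9 FPKM at ZT4 (log2 difference 0.76 ± 0.12, adjusted p = 0.00564). Saa3 was higher at 0.70 and Apcs, serum amyloid P, lower at -1.02. Saa3 lost its call without ZT16 replicate 1, ZT16 replicate 2, ZT4 replicate 1 or ZT4 replicate 2, with an adjusted p of up to 0.0932, and Apcs without ZT16 replicate 1, ZT16 replicate 3, ZT4 replicate 2 or ZT4 replicate 3, with an adjusted p of up to 0.0930. Acute phase genes called higher numbered 3, 2 and 3 without ZT16 replicate 1, 2 or 3, and 2, 3 and 3 without ZT4 replicate 1, 2 or 3.

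Genes of hepatocyte zones gave small numbers. Of 16 pericentral genes 3 were called lower, with a median of -0.33, all of them targets of WNT signalling. Tbx3, a factor of central vein hepatocytes, had 1.38, 2.01 and 2.46 FPKM at ZT16, against 3.98, 4.65 and 5.03 FPKM at ZT4 (log2 difference -0.93 ± 0.15, adjusted p = 0.00671). Axin2 had 0.414, 0.750 and 1.01 FPKM at ZT16, against 1.70, 1.79 and 1.63 FPKM at ZT4, and Lgr5 had 0.513, 0.781 and 0.622 FPKM at ZT16, against 0.939, 1.87 and 1.69 FPKM at ZT4. Axin2 lost its call without ZT16 replicate 2, ZT4 replicate 1, ZT4 replicate 2 or ZT4 replicate 3, with an adjusted p of up to 0.0573, and Lgr5 without ZT16 replicate 1, ZT16 replicate 2, ZT16 replicate 3, ZT4 replicate 2 or ZT4 replicate 3, with an adjusted p of up to 0.161. The pericentral enzymes Cyp2e1 and Cyp1a2, read after the fact, were at 0.20 and 0.16. Of 14 periportal genes 2 were called higher, Pck1 and Sds, which are named above. Pericentral genes called lower numbered 3, 1 and 2 without ZT16 replicate 1, 2 or 3, and 3, 1 and 1 without ZT4 replicate 1, 2 or 3, and periportal genes called higher 2, 2 and 2 without ZT16 replicate 1, 2 or 3, and 1, 2 and 1 without ZT4 replicate 1, 2 or 3.

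Housekeeping lists gave few calls. Of 74 respiratory chain subunits 0 were called, with a median of -0.002, and of 31 proteasome subunits 0 were called, with a median of -0.17. A positive value was held by 37 of the 74 and by 5 of the 31, beside 5372 of all 11746 members. Among 76 cytoplasmic ribosomal protein genes 4 were called lower, Rpl26, Rpl11 and Fau among them (5.26%, beside 4.49% of all members), and 1 higher. The number called lower was 2 to 5 with 1 library left out, and the call of the 1 higher gene was lost without any of the 6 libraries. Rpl26 had 1.46, 1.13 and 1.73 FPKM at ZT16, against 3.53, 2.97 and 3.04 FPKM at ZT4 and Rpl11 6.07, 6.56 and 4.80 FPKM at ZT16, against 9.73, 14.97 and 11.4 FPKM at ZT4. These genes have many processed copies in the genome that share reads with them, so single values are uncertain. Fau lost its call without ZT16 replicate 1, ZT16 replicate 2, ZT4 replicate 2 or ZT4 replicate 3, with an adjusted p of up to 0.133. Short transcripts as a class leaned down: of 202 members with a transcript under 300 bases 1 was called higher and 25 lower (median -0.28), and of 109 between 300 and 600 bases 2 were called higher and 19 lower (median -0.26). Small nucleolar RNAs are themselves among these short transcripts, so the classes are not separate from them. The part of transcript length in the results of ribosomal protein genes and small nucleolar RNAs was not tested. Of 22 ribosome biogenesis genes 2 were called higher, Ncl (nucleolin) at 0.58 and Polr1a, the large subunit of RNA polymerase I, at 0.42. Ncl lost its call without ZT16 replicate 3, ZT4 replicate 1, ZT4 replicate 2 or ZT4 replicate 3, with an adjusted p of up to 0.0983, and Polr1a without ZT16 replicate 1, ZT16 replicate 2, ZT16 replicate 3, ZT4 replicate 2 or ZT4 replicate 3, with an adjusted p of up to 0.155.

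Of 27 autophagy genes 2 were called higher and 2 lower (7.41% each, beside 3.3% and 4.49% of all members), and all 4 calls were lost with a library left out. Bnip3, a mitophagy receptor, was at 0.77, and Tfeb, the master factor of lysosomal genes, at 0.36. Sqstm1 (p62), a cargo adaptor, was at -0.54, and Gabarapl1 at -0.71. Bnip3 lost its call without ZT16 replicate 2, ZT16 replicate 3, ZT4 replicate 1 or ZT4 replicate 3, with an adjusted p of up to 0.0697, and Gabarapl1 without ZT16 replicate 1, ZT16 replicate 2, ZT16 replicate 3, ZT4 replicate 2 or ZT4 replicate 3, with an adjusted p of up to 0.144. Tfeb and Sqstm1 lost theirs without any of the 6 libraries, with adjusted p of up to 0.155 and 0.195. Of 20 cell cycle genes Wee1 and Trp53inp1 were called higher and Ccnd1, cyclin D1, lower, with 11.6, 22.0 and 14.5 FPKM at ZT16, against 27.0, 27.8 and 30.7 FPKM at ZT4. Ccnd1 lost its call without ZT16 replicate 1, ZT16 replicate 3, ZT4 replicate 1, ZT4 replicate 2 or ZT4 replicate 3, with an adjusted p of up to 0.123, and Trp53inp1 without ZT4 replicate 1 or ZT4 replicate 3, with an adjusted p of up to 0.0629. In the growth hormone list 1 of 17 was called lower, Stat5b, the main transducer of growth hormone in liver, with 8.45, 9.59 and 10.3 FPKM at ZT16, against 13.5, 15.01 and 15.3 FPKM at ZT4, and its call was lost without ZT4 replicate 2 or ZT4 replicate 3, with an adjusted p of up to 0.0799. In the antioxidant list 1 of 23 was called lower, Osgin1, which is named above. In the iron list 1 of 17 was called lower, Id1, a target of BMP signalling, at -0.66, and its call was lost without ZT16 replicate 1, ZT16 replicate 3, ZT4 replicate 1 or ZT4 replicate 3, with an adjusted p of up to 0.121. The shares called lower in the growth hormone, antioxidant and iron lists, 5.88%, 4.35% and 5.88%, lie near the 4.49% of all members.

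With the spread taken from all 18 WT libraries, other list counts also moved by over 1.5 times. Genes called lower then numbered 0 for glycogen, 1 for fatty acid and triglyceride synthesis, 1 for fatty acid oxidation, 1 for insulin and FOXO genes, and 0 for amino acid genes. They numbered 2 for ribosomal protein genes, 1 for autophagy, and 0 for clock modifiers, clock outputs, heme, NAD, cell cycle, iron and neutrophil genes. Acute phase genes called lower rose from 1 to 3. Genes called higher numbered 3 for NAD, 1 for acute phase, 1 for glycogen, 1 for bile acid, 0 for heme, 0 for periportal and 0 for autophagy genes. D-box factors and cell cycle genes called higher numbered 1 each, and unfolded protein and ribosomal protein genes 0 each.

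**Figure D3:**
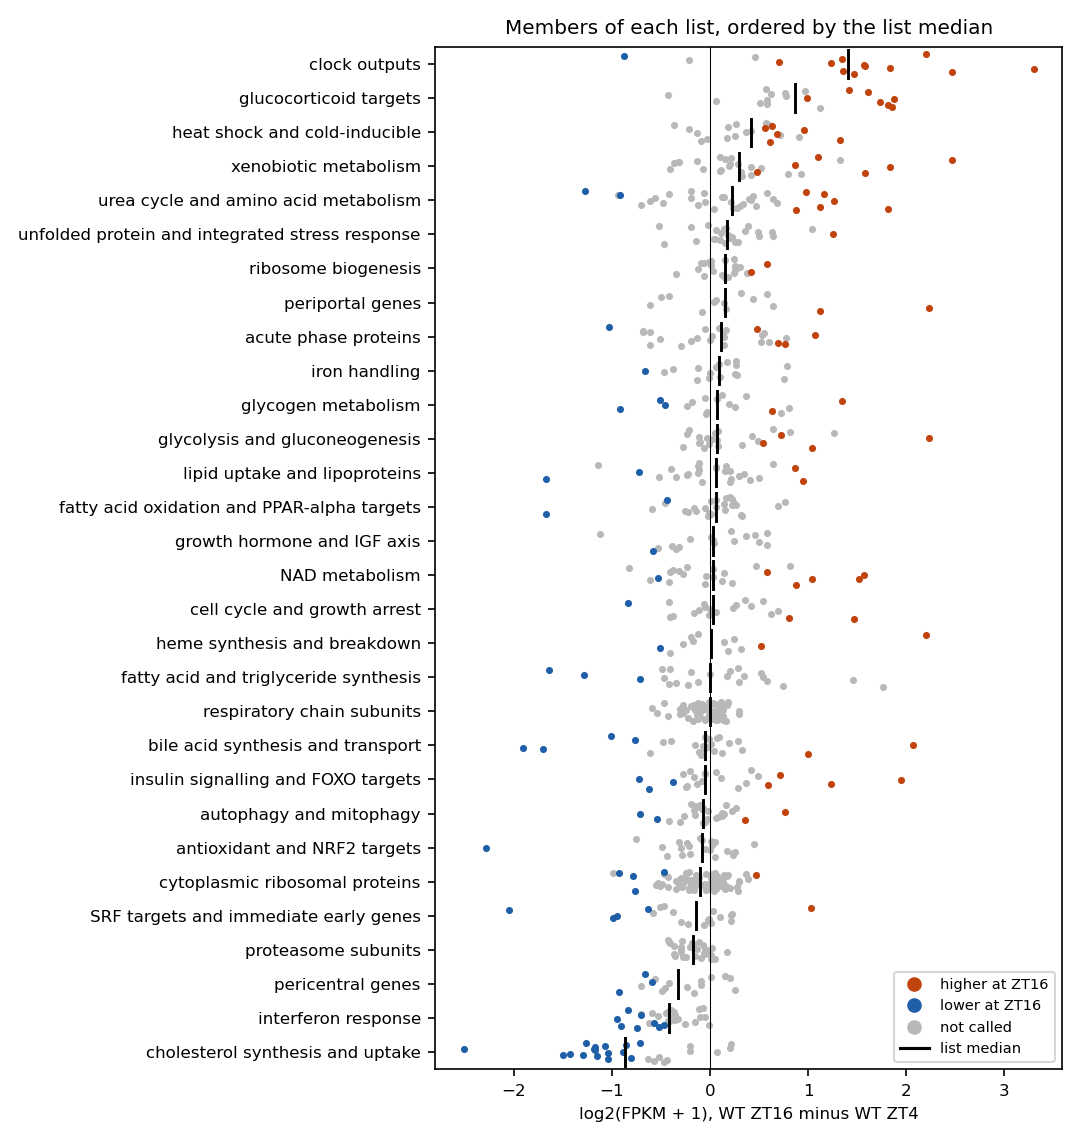
Difference between WT ZT16 and WT ZT4 in log2(FPKM + 1) for each measured member of the lists with at least 10 members, one point per gene, with the list median as a black bar. Clock outputs (median 1.41) and glucocorticoid targets (0.87) lie farthest right and cholesterol genes (-0.87) farthest left.

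The highest WT mean over the 6 harvest times is given as a description, since it includes the ZT16 and ZT4 libraries that called the genes. Of the 388 genes called higher, the WT mean was highest at ZT16 for 194, at ZT12 for 148 and at ZT20 for 43. Of the 527 called lower, it was highest at ZT4 for 296, at ZT0 for 152, at ZT12 for 43 and at ZT8 for 34. The differences between the other WT times used other mice. In the ZT12 minus ZT0 difference 338 of the 388 genes called higher were above 0 (87.1%, beside 58.1% of all members), with a median of 0.45. Of the 527 called lower, 418 were below 0 (79.3%, beside 41.9%), with a median of -0.34. In the ZT20 minus ZT8 difference the numbers were 238 of 388 (61.3%, beside 35.6%) and 420 of 527 (79.7%, beside 64.4%). WT ZT8 replicate 2 had clock genes out of phase with its group, with Arntl at 10.6 FPKM where the other 2 libraries had 0.414 and 0.563 FPKM. Without it the ZT20 minus ZT8 numbers were 249 of 388 and 428 of 527. None of the 6 libraries compared here lay that far from its group in Arntl. Arntl had 4.75, 4.37 and 5.55 FPKM at ZT16, against 4.64, 7.54 and 7.52 FPKM at ZT4. ZT4 replicate 1 lay below its group there, and smaller shifts of phase were not tested.

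**Figure D4:**
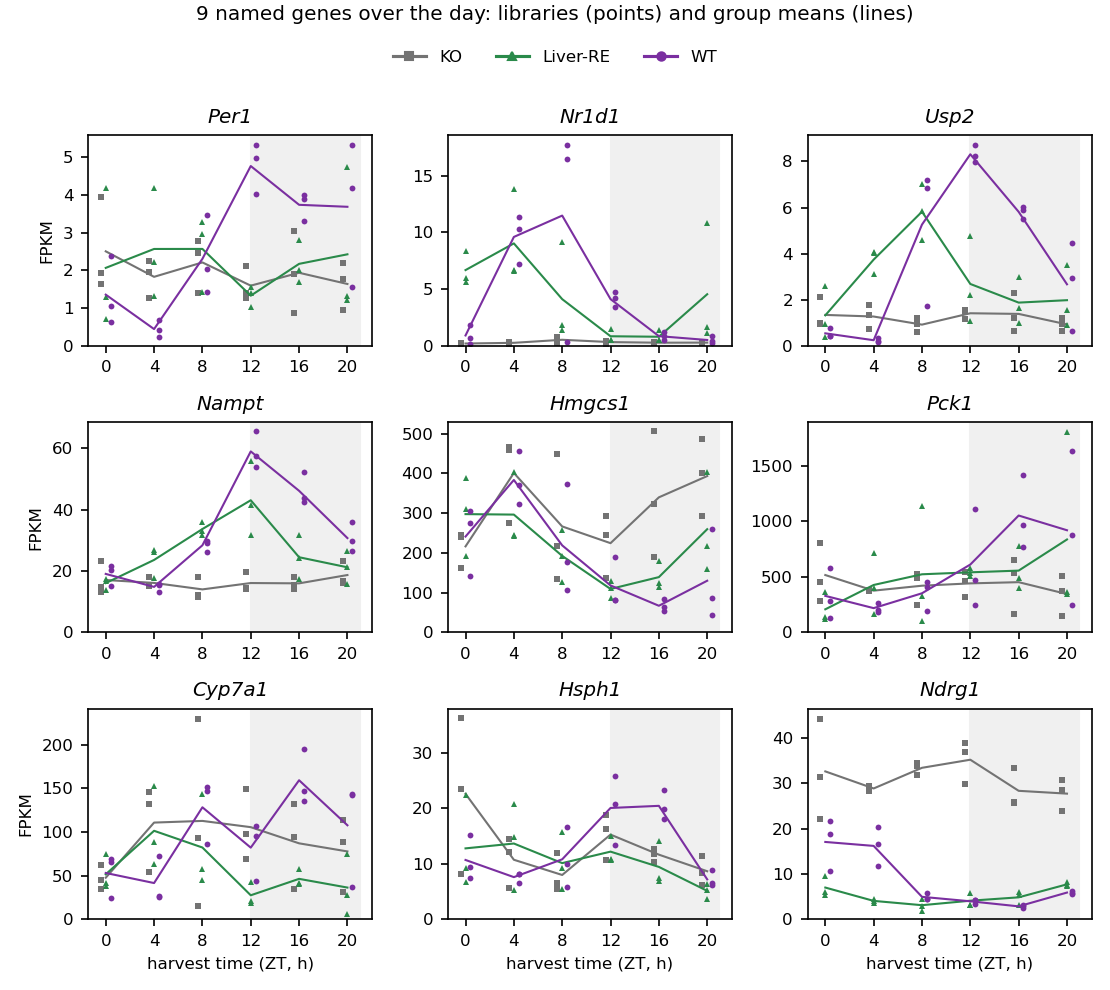
FPKM of 9 named genes at 6 harvest times in KO (squares), Liver-RE (triangles) and WT (circles) livers, with points for libraries, lines for group means and the dark phase in grey. In WT, Per1, Usp2, Nampt, Pck1 and Hsph1 are high in the dark phase and Nr1d1, Hmgcs1 and Ndrg1 low at ZT16, while the KO libraries of Nr1d1 stay below the WT ZT4 libraries at ZT16 and ZT4.

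The same 2 times in KO and Liver-RE livers asked how far the difference depends on BMAL1 in the body and in the liver. In KO livers 0 of 11746 members were called between ZT16 and ZT4 by limma (0%), with 795 at an unadjusted p under 0.05 and a smallest adjusted p of 0.187. In Liver-RE livers 132 were called (1.12%), 54 higher and 78 lower. In WT livers 2825 were at an unadjusted p under 0.05. That WT count came from a fit of WT libraries alone, while the KO and Liver-RE fits also held the WT libraries. The members were chosen by their WT levels only. The counts of the genotypes therefore do not rest on equal terms and cannot be compared directly. A lack of calls in one genotype does not show a difference, which was tested as the ZT16 minus ZT4 difference of one genotype minus that of WT. It passed for 192 members between KO and WT (1.63%) and for 206 between Liver-RE and WT (1.75%). These tests share the WT libraries with each other and with the WT comparison. The count for KO lay between 79 (without KO ZT4 replicate 3) and 272 (without KO ZT16 replicate 3), and that for Liver-RE between 87 (without Liver-RE ZT16 replicate 2 or WT ZT4 replicate 3) and 500 (without Liver-RE ZT16 replicate 1).

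Over the genes that the WT libraries called, the KO libraries showed little of the difference. The 388 genes higher in WT at ZT16 had a median ZT16 minus ZT4 difference of 0.06 in KO, of 0.0005 in Liver-RE and of 0.68 in WT, where they were chosen. All members had a median of 0.02 in KO and -0.10 in Liver-RE. The 527 genes lower in WT had a median of -0.07 in KO, of -0.22 in Liver-RE and of -0.66 in WT. Of the 388, 253 lay above 0 in KO (65.2%, beside 55.1% of all members) and 195 in Liver-RE (50.3%, beside 33.8%). Of the 527, 335 lay below 0 in KO (63.6%, beside 44.9%) and 403 in Liver-RE (76.5%, beside 66.2%).

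**Figure D5:**
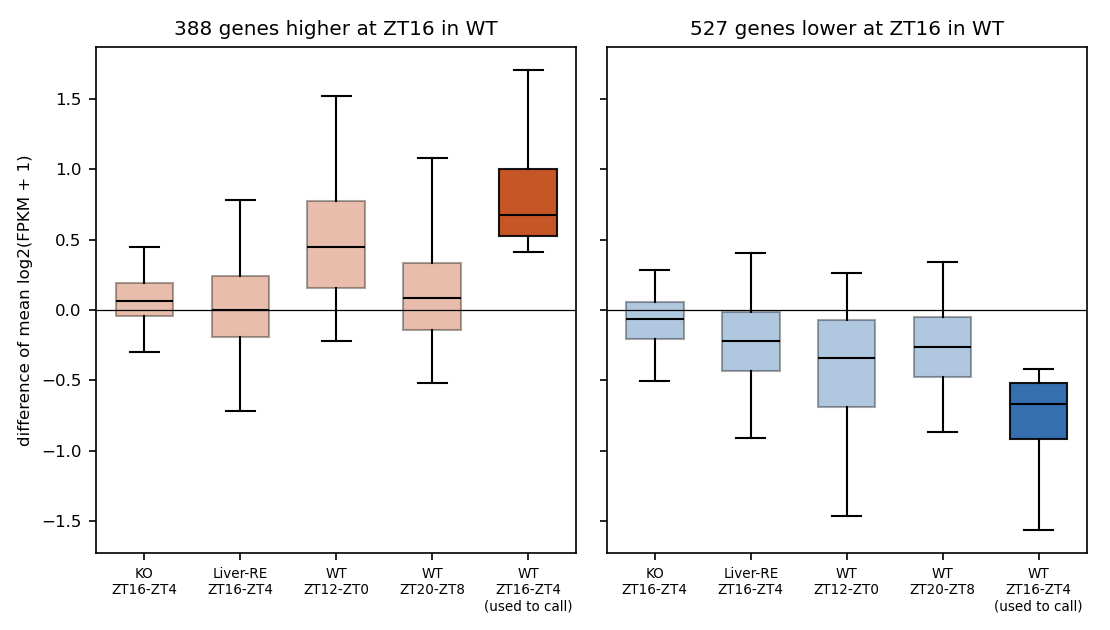
Differences in mean log2(FPKM + 1) for the genes called higher (left) and lower (right) at ZT16 in WT, as boxes from the 25th to the 75th percentile with the median and whiskers at the 5th and 95th percentiles. The dark box is the comparison used to call them, so its distance from 0 is by choice, and the pale boxes come from other mice, with KO medians of 0.06 and -0.07.

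The ZT16 minus ZT4 difference in KO livers differed from WT for 4 of the 6 clock repressors, Per1, Per3, Cry1 and Ciart. Arntl had 8.64, 8.70 and 8.74 FPKM at ZT16, against 8.26, 7.63 and 7.51 FPKM at ZT4 there, a value for the whole gene that does not check the label. Per1 in KO had 1.89, 0.860 and 3.06 FPKM at ZT16, against 1.27, 1.97 and 2.24 FPKM at ZT4, so that the KO minus WT difference of differences was -1.73 ± 0.33, adjusted p = 0.0216. Per3 in KO had 1.77, 1.39 and 1.23 FPKM at ZT16, against 1.21, 1.06 and 1.18 FPKM at ZT4 (-1.63 ± 0.21, adjusted p = 0.00189), and Ciart in KO 0.165, 0.134 and 0.164 FPKM at ZT16, against 0.148, 0.0482 and 0.155 FPKM at ZT4 (-1.51 ± 0.18, adjusted p = 0.00176). Cry1 stayed high at both times in KO, with 20.0, 19.1 and 19.1 FPKM at ZT16, against 17.6, 22.0 and 19.3 FPKM at ZT4 (-1.72 ± 0.23, adjusted p = 0.00329). Nr1d1 stayed low at both times in KO, with 0.285, 0.265 and 0.225 FPKM at ZT16, against 0.359, 0.187 and 0.201 FPKM at ZT4 (2.54 ± 0.23, adjusted p = 0.000635). The Per1 result between KO and WT missed the threshold without KO ZT4 replicate 2, KO ZT4 replicate 3, WT ZT16 replicate 3 or WT ZT4 replicate 3, with an adjusted p of up to 0.0607. Per2 (adjusted p = 0.0675), Cry2 (adjusted p = 0.0961) and Npas2 (adjusted p = 0.0613) did not pass between KO and WT. With the spread taken from all 54 libraries, adjusted p between KO and WT was 0.126 for Per1, 0.0601 for Per3, 0.0860 for Cry1, 0.215 for Ciart and 0.151 for Nr1d1. Of the 24 clock genes the difference passed for 7 in KO and for 11 in Liver-RE.

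In Liver-RE livers the clock genes did not all take the WT direction. Nr1d1 fell at ZT16 there as in WT, with 0.472, 0.458 and 1.42 FPKM at ZT16, against 6.65, 6.57 and 13.8 FPKM at ZT4 in Liver-RE (0.07 ± 0.39, adjusted p = 0.943 for the Liver-RE minus WT difference). Cry1 had 12.0, 11.2 and 8.98 FPKM at ZT16, against 3.81, 2.70 and 2.15 FPKM at ZT4 (-0.10 ± 0.28, adjusted p = 0.883), close to the WT difference. A p that misses the threshold does not show that the genotypes acted alike. Dbp went the other way in Liver-RE, with 3.51, 2.23 and 2.19 FPKM at ZT16, against 36.4, 36.2 and 35.9 FPKM at ZT4 (-4.12 ± 0.32, adjusted p = 0.000225). So did Ciart, with 0.320, 0.340 and 0.247 FPKM at ZT16, against 2.70, 4.19 and 1.42 FPKM at ZT4 (-3.02 ± 0.31, adjusted p = 0.000900), and Per3, with 4.91, 3.44 and 1.67 FPKM at ZT16, against 7.31, 5.87 and 7.68 FPKM at ZT4 (-2.76 ± 0.34, adjusted p = 0.00195). Arntl, with 7.64, 10.1 and 10.7 FPKM at ZT16, against 2.11, 1.34 and 1.499 FPKM at ZT4, was higher at ZT16 in Liver-RE, where WT overlapped (2.32 ± 0.25, adjusted p = 0.000928). Per2 (-2.59 ± 0.40, adjusted p = 0.00730), Tef (-2.47 ± 0.24, adjusted p = 0.000674), Nr1d2 (-1.89 ± 0.29, adjusted p = 0.00730) and Npas2 (1.52 ± 0.25, adjusted p = 0.00954) also differed. With the spread of all 54 libraries Nr1d2 missed the threshold (adjusted p = 0.0958).

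The lists of outputs and metabolism were set beside WT in the same way, with no test between lists. Among 14 clock outputs the difference from WT passed for 7 in KO and 9 in Liver-RE, with medians of 0.03 in KO, 0.02 in Liver-RE and 1.41 in WT. Nampt in KO had 14.2, 18.2 and 15.6 FPKM at ZT16, against 15.2, 18.1 and 15.02 FPKM at ZT4 (-1.59 ± 0.18, adjusted p = 0.00105), and Wee1 in KO 1.96, 2.23 and 1.68 FPKM at ZT16, against 2.03, 1.71 and 1.93 FPKM at ZT4 (-1.44 ± 0.14, adjusted p = 0.000635). Among 26 cholesterol genes it passed for 2 in KO (Hmgcs1 and Sc5d) and 2 in Liver-RE, with medians of -0.19 in KO, -0.67 in Liver-RE and -0.87 in WT. Hmgcs1 in KO had 190.4, 505 and 323 FPKM at ZT16, against 276, 466 and 459 FPKM at ZT4 (2.20 ± 0.44, adjusted p = 0.0291). For 18 glucocorticoid targets it passed for 3 in KO and 2 in Liver-RE, with medians of -0.05 in KO, 0.05 in Liver-RE and 0.87 in WT. Pck1 in KO had 535, 166 and 657 FPKM at ZT16, against 373, 377 and 379 FPKM at ZT4, and the difference from WT did not pass (-2.19 ± 0.56, adjusted p = 0.0752). Cyp7a1 did not pass in KO (-2.499 ± 0.72, adjusted p = 0.110) and passed in Liver-RE (-3.11 ± 0.54, adjusted p = 0.0135). Of the 29 interferon genes it passed for 1 in KO and 0 in Liver-RE, with medians of -0.14 in KO, -0.33 in Liver-RE and -0.42 in WT.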

How the data were processed

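RNA of livers was measured by sequencing. Per the labels' protocols, ribosomal RNA was removed from total RNA, and single-end reads came from stranded libraries. The authors deposited 1 table with genes in rows and libraries in columns, without naming a unit. Its values step with transcript length and were read as the authors' FPKM, a level per length and depth. CASAVA 1.8.2 and mm10 are named in the submitters' processing notes, with no role. For aligner, counting and annotation the answer is: not given in the sources used here.

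From the deposited FPKM, log2(FPKM + 1) was computed and the 6 libraries fitted with limma 3.58.1 in R 4.3.3, with empirical Bayes shrinkage along a trend of the mean level, with a Benjamini-Hochberg adjustment over all 11746 members and a threshold of 0.05. The genotype differences were contrasts of 4 groups and 12 libraries each. The values are not counts, so neither a count model nor counting intervals were used. The labels give 3 replicates per group, and p-values measure the spread between them. Between any 2 of the 6 libraries, at most 1 of the 11746 values was exactly equal. On simulated data for the 11746 genes, with 200 changed genes in each of 10 sets, the WT comparison recovered 83.1% of log2 changes of 1 and 97.2% of changes of 2, with 4.94% false calls. The KO minus WT comparison recovered 74.5% and 96.6%, with 3.91% false calls. Changed genes were drawn only from those with a mean of at least 1 FPKM, and noise was normal and independent between genes and libraries. Variation shared by the genes of a library was not simulated, so these rates need not hold for the real libraries. Tables were handled in Python 3.11.15 (numpy 2.4.6, pandas 2.3.3) and plotted with matplotlib 3.10.9. Gene coordinates are from GENCODE on GRCm38, the assembly of mm10, and promoter windows from RefSeq on GRCm38.p6.

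The comparison, its members and the gene lists were chosen with earlier results of these data known. Named genes were all measured clock list members, the 15 highest and 15 lowest called differences with a mean of at least 1 FPKM in the higher group, groups that do not overlap and 1 sign with each library left out, up to 4 members per list by smallest p, and the 10 smallest adjusted p per genotype difference. Predicted genes and pseudogenes were left out, and the text leaves out some named genes for length, and some genes are not reported here. Lists are described by counts and medians with no test of the list. Alternatives were no filter, a pseudocount of 0.1, a block for the replicate number, quantile normalization, the 20 highest genes left out and the rest rescaled, robust empirical Bayes, more libraries in the fit, and each library left out in turn.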

Additional observations from a re-analysis of the deposited data

Results flagged for a closer look

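The ZT16 minus ZT4 difference of the genes below differed between genotypes by a test of the difference itself, in limma over all 11746 members. Values are the difference in one genotype minus that in WT, in log2(FPKM + 1), and all rest on 3 libraries per group and share the WT libraries.

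Between KO and WT, values were below 0 for genes that were higher at ZT16 in WT: -1.73 for Per1, -1.63 for Per3, -1.72 for Cry1, -1.51 for Ciart, -1.63 for Tef, -1.44 for Wee1, -1.59 for Nampt, -1.38 for Nrg4, a growth factor of the neuregulin family, and -1.59 for Gde1, a glycerophosphodiester phosphodiesterase. They were above 0 for genes that were lower at ZT16 in WT: 2.54 for Nr1d1, 2.11 for Ndrg1, 1.73 for Mrnip and 1.17 for Camk1d, a calcium-dependent kinase.

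Between Liver-RE and WT, values were -1.84 for Per1, -2.59 for Per2, -2.76 for Per3, -3.02 for Ciart, -4.12 for Dbp, -2.47 for Tef, -0.71 for Hlf, -1.89 for Nr1d2, -3.24 for Usp2, -1.96 for Nrg4 and -1.60 for Klf13. They were 2.32 for Arntl, 1.52 for Npas2, 1.26 for Nfil3, 1.58 for Mrnip, 1.69 for Mpzl1 and 1.17 for Arhgef10l.

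Of these 30 differences 26 passed without any 1 of their 12 libraries. Per1 in KO missed the threshold in 4 of the 12 runs, with an adjusted p of up to 0.0607 without KO ZT4 replicate 3. Per1 in Liver-RE missed it in 3, up to 0.0635 without Liver-RE ZT16 replicate 2, Nfil3 in 7, up to 0.0818 without the same library, and Hlf in 10, up to 0.138 without WT ZT4 replicate 3. With the spread taken from all 54 libraries, 11 of the 30 missed the threshold. Between KO and WT these were Per1 (adjusted p = 0.126), Per3 (0.0601), Cry1 (0.0860), Ciart (0.215), Nr1d1 (0.151), Nrg4 (0.108) and Camk1d (0.160). Between Liver-RE and WT these were Per1 (adjusted p = 0.0502, and 0.0612 with the replicate number as a block), Nr1d2 (0.0958), Hlf (0.207) and Nfil3 (0.159).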

How the results depend on the processing

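All 121 called named genes kept their sign under every alternative that gave a value, but most alternatives could not change it. Their groups do not overlap, so leaving out 1 library or changing the pseudocount cannot turn a sign. The replicate block, no filter, robust empirical Bayes and more libraries leave the difference itself as it was. Only quantile normalization and the rescaling without the 20 highest genes could have turned a sign. With 1 library left out, WT genes called higher numbered 180 to 373 and genes called lower 235 to 420. The genotype differences numbered 79 to 272 for KO and 87 to 500 for Liver-RE. Without a filter on low values, where 17799 to 17980 genes were tested, the numbers were 191 higher and 229 lower in WT, 83 for KO and 117 for Liver-RE. With the spread taken from all 54 libraries the number for KO was 58, and the cause was not tested. With the spread of all 18 WT libraries, 377 were higher and 366 lower in WT, and 566 of the 915 genes kept their call.

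Same-numbered ZT16 and ZT4 libraries showed no common deviation, with correlations of 0.15, 0.09 and -0.14 over genes, beside -0.20 to 0.13 for unlike numbers. These values show no pairing by replicate number and cannot show that there was none. With the replicate number as a block, 283 genes were higher and 384 lower in WT, 142 differed for KO and 120 for Liver-RE. A pseudocount of 0.1 gave 386 higher and 520 lower, quantile normalization 551 and 560, the 20 highest genes left out 406 and 598, and robust empirical Bayes 405 and 564. No scaling moved the median of all members by more than 0.026. The number of libraries limits all of these.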

Other observations

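The groups below were assembled after their values were seen and are given as values. Of 83 small nucleolar and Cajal body RNAs 19 were called lower and 0 higher, 74 had a value below 0, and the median was -0.46. Their summed level was 827 to 1468 FPKM at ZT16 and 1916 to 2047 FPKM at ZT4 in WT, without overlap. The median difference of the same genes was -0.10 in KO and -0.35 in Liver-RE. Replication-dependent histone genes, whose messages end in a stem loop in place of a poly(A) tail, had 24 of 53 called lower and 0 higher, with a median of -0.64. They summed to 509 to 554 FPKM at ZT16 and 627 to 754 FPKM at ZT4 in WT, and the median difference was -0.24 in KO and -0.37 in Liver-RE. Both groups are short RNAs. Among members with transcripts under 300 bases 25 of 202 were called lower and 1 higher, and of 109 between 300 and 600 bases 19 were called lower and 2 higher. Small nucleolar RNAs are themselves among these short transcripts, so the length classes are not separate from that group. The part of transcript length was not tested. Small nucleolar RNAs called lower numbered 22, 11 and 18 without ZT16 replicate 1, 2 or 3, and 13, 15 and 10 without ZT4 replicate 1, 2 or 3. Histone genes called lower numbered 17, 17 and 11 without ZT16 replicate 1, 2 or 3, and 22, 12 and 11 without ZT4 replicate 1, 2 or 3, with 1 called higher without ZT16 replicate 3. Histone genes are near-identical copies, and single values are uncertain.

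Of 6 measured class II antigen presentation genes 4 were called higher, H2-Aa, H2-Ab1, H2-Eb1 and Cd74, with a median of 0.71. Cd74, the invariant chain, had 59.5, 56.9 and 60.5 FPKM at ZT16, against 40.3, 35.4 and 27.5 FPKM at ZT4, and H2-Ab1 had 24.1, 27.1 and 32.2 FPKM at ZT16, against 19.3, 16.2 and 12.2 FPKM at ZT4. They summed to 140 to 153 FPKM at ZT16 and 69.8 to 101 FPKM at ZT4 in WT, and the median difference was 0.33 in KO and 0.89 in Liver-RE. Summed Kupffer cell markers overlapped between the times, with 374.7 to 479 FPKM at ZT16 and 353 to 488 FPKM at ZT4. The count of 4 became 3 without ZT16 replicate 2 or ZT4 replicate 2, 1 without ZT16 replicate 3, 0 without ZT4 replicate 3 and 0 with the spread of all 18 WT libraries. Of 5 flavin monooxygenases 3 were called higher, Fmo2 and Fmo5 among them, with medians of 0.15 in KO, 0.37 in Liver-RE and 1.47 in WT. Without ZT16 replicate 3, 2 of them were called.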
